A study of Mus musculus with 6 samples.

Results

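The transcripts of 46 genes were followed in the epithelium of the embryonic small intestine: 20 cytosolic aminoacyl-tRNA synthetases, 16 mitochondrial synthetases, whose symbols end in 2, and a group of 10 genes made up of *Atf4* and other target genes of the transcription factor ATF4. The genes were chosen by symbol, out of 23366 genes counted. All 46 were found in the count tables and all 46 were among the 12501 genes that passed the filter on low counts and were tested. There were 3 libraries of the genotype *Shh*-cre-egfp:*Tcf7l1* lox/lox, called mutant, and 3 labelled wild type, all of embryonic day 13.5 and untreated. In the mutants Cre recombinase, expressed from the *Shh* locus, removes a floxed exon of *Tcf7l1*, which encodes a repressor of WNT target genes. The wild type group is not described as carrying the Cre allele, so the Cre allele and the loss of *Tcf7l1* cannot be told apart. Each library came from 500 living EpCAM-positive cells taken by cell sorting after collagenase treatment, and its cDNA was amplified over 15 PCR cycles. The series describes the libraries as biological replicates. Whether each came from 1 embryo or from several was not stated.

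Aminoacyl-tRNA synthetases join each amino acid to its tRNA, and so supply both the cytosolic and the mitochondrial ribosome. Most amino acids have a separate enzyme for each compartment. When amino acids run short or the endoplasmic reticulum is under stress, kinases phosphorylate the initiation factor eIF2, general translation slows, and the mRNA of *Atf4* is translated more efficiently. ATF4 then activates genes of amino acid synthesis and uptake, many cytosolic synthetases and several stress regulators, a programme known as the integrated stress response. Since ATF4 is set largely at the level of translation, the amount of its mRNA is not a measure of its protein.

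The site through which ATF4 and C/EBP factors act on many of these genes has the core TGATGNAA, read on either strand. Promoter windows of RefSeq (build GRCm38.p6), from 250 bases before to 50 bases after a start site, were placed on mm9 by sequence for 37 of the 46 genes. The core was found in the windows of 8 of these 37 (21.6%), against 4.51% of 27025 genes with a window and 2.68% of 9341 tested genes. The 37 were matched to windows by symbol or synonym and the 9341 by symbol alone, so these shares rest on unlike matching. The 46 genes include known targets of ATF4, so the share is not independent of how they were chosen. It was present in 5 of 13 cytosolic synthetases, in 0 of 14 mitochondrial synthetases and in 3 of 10 of the *Atf4* group. Of the 46 genes, those called below are *Asns*, *Farsb*, *Ddit3* and *Vars*. The window of *Asns* held the core, those of *Farsb* and *Ddit3* did not, and *Vars* had no window. The others without a window were *Cars*, *Hars*, *Lars*, *Nars*, *Rars*, *Wars*, *Hars2* and *Pars2*. *Atf4* itself had no match. The 250 bases before the start of *Asns* and *Atf4* are shown 5′ to 3′ on the strand of the gene, with the core in capitals. They lie at chr6:7643210-7643459 on the minus strand (*Asns*) and at chr15:80085364-80085613 on the plus strand (*Atf4*) of mm9.
Asns: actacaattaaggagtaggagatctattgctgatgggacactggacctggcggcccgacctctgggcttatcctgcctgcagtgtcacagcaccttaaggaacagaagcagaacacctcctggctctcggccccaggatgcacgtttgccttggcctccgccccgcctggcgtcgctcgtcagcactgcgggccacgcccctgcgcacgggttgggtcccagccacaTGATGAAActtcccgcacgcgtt
Atf4: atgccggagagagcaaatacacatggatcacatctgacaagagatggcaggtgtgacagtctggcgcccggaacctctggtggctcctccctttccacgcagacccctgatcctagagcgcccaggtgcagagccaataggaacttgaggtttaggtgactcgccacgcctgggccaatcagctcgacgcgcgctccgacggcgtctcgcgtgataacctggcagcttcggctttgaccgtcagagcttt

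Matches of 6 other genes are shown with the bases around them, in capitals the core or its reverse complement, because they mark which synthetases and stress regulators carry the letters. The match of *Asns* lies 23 bases upstream of its start site. Coordinates are of mm9.
*Gars*, 30 bases upstream of the start site, chr6:54987954-54987983, plus strand: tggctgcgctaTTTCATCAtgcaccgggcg
*Iars*, 7 bases downstream of the start site, chr13:49777495-49777524, plus strand: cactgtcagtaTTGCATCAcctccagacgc
*Tars*, 15 bases upstream of the start site, chr15:11329410-11329439, minus strand: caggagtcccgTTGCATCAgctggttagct
*Yars*, 3 bases downstream of the start site, chr4:128867139-128867168, plus strand: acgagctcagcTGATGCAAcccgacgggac
*Chac1*, 193 bases upstream of the start site, chr2:119176774-119176803, plus strand: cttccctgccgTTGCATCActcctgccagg
*Trib3*, 14 bases downstream of the start site, chr2:152169764-152169793, minus strand: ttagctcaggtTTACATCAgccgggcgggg
A match describes letters and not binding. Of the 8 genes with a match, *Asns* and *Gars* rose and *Iars* fell by the test described next, and the other 5 did not pass it. By the same test 13.6% of all tested genes rose and 15.1% fell, and a link between match and change was not tested.

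The total counts lay between 18216537 and 20397278 reads per library. Counts were scaled by TMM and are given as normalized counts per library, in the order of the replicate numbers, with each mean followed by its SD (n = 3). Mutant was tested against wild type in edgeR by quasi-likelihood, and p-values were adjusted by the Benjamini-Hochberg method across the 12501 genes. A gene rose or fell where its adjusted p was under 0.05. It was called where its adjusted p was also under 0.01, its log2 fold change (mutant over wild type) at least 0.5 in size and its mean normalized count at least 50. *Tcf7l1* itself ranged from 364 to 476 normalized counts in wild type libraries and from 33.0 to 73.0 in the mutant ones. The mutant libraries held 229 to 424 reads of *Xist* and 0 Y-linked reads, the wild type libraries 0 reads of *Xist* and 4952 to 5293 Y-linked reads, so sex and genotype cannot be told apart. None of the 46 genes lies on a sex chromosome. The 6 epithelial markers together made up 5389 to 5801 CPM (counts scaled to library size and TMM factor) in the wild type group and 5272 to 5459 CPM in the mutant group, and of these *Epcam*, the marker of the sort, rose (log2 fold change 0.25), *Krt8* fell (-0.32), *Cdh1*, *Cdx2* and *Krt18* were called lower and *Vil1* did not pass. The 7 mesenchymal markers summed to 67.2 to 78.8 and 52.5 to 74.6 CPM, and of the 3 that were tested *Vim* (-0.46) and *Col3a1* (-2.21) fell and *Acta2* rose (1.52), with 442 reads in mutant 3 against 74 to 161 in the other libraries. Neural crest markers to 8.67 to 8.79 and 7.32 to 11.3 CPM, and endothelial and blood markers to at most 1.06 CPM, with *Hbb-b1*, *Hba-a1*, *Ptprc*, *Cdh5*, *Kdr* and *Tek* at 0 in all 6 libraries. The part that other cells or sex play in the results below was not tested. In sorted pools of cells, fewer cells of a type and less RNA per cell cannot be told apart.

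Of the 46 genes, 16 rose and 3 fell in the mutant epithelium, against 13.6% higher and 15.1% lower among all tested genes. The rises amount to 34.8% of the 46 and the falls to 6.52%. The 3 genes called higher were *Farsb*, *Asns* and *Ddit3*, and *Vars* was called lower, where 2.78% of all tested genes were called higher and 5.83% lower. Every mutant library lay above every wild type library for 21 of the 46 and below for 5, against 20.8% and 22.2% of all tested genes. The 10 genes of the *Atf4* group all had a positive log2 fold change, with a median of 0.48. The median was 0.15 over the cytosolic and 0.04 over the mitochondrial synthetases, and -0.04 over all tested genes, and that of the mitochondrial synthetases turned to -0.07 when only library size scaled the counts. In CPM, the cytosolic synthetases summed to 4974 to 5153 (wild type) and 5688 to 5777 (mutant), and the *Atf4* group to 1233 to 1286 and 1631 to 1716. The mitochondrial synthetases summed to 868 to 936 and 968 to 1005 CPM. When scaled to library size alone, the sums of the mitochondrial synthetases overlapped, 874 to 985 against 926 to 974. Those of the cytosolic synthetases were then 5188 to 5365 and 5443 to 5579, and those of the *Atf4* group 1294 to 1307 and 1561 to 1656.

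**Figure D1:**
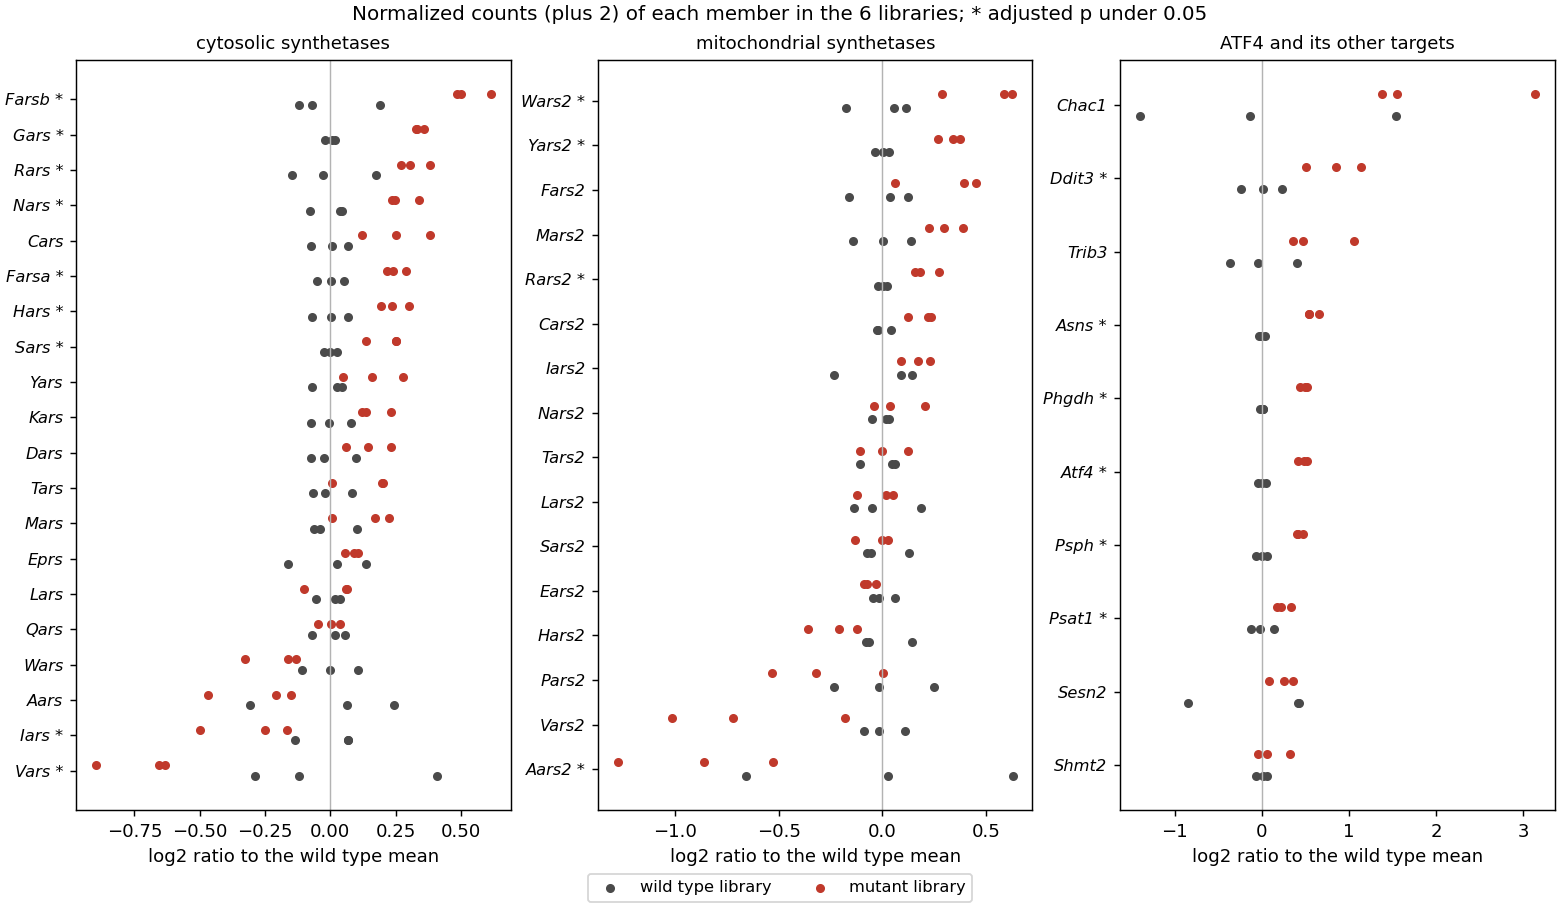
Each of the 46 genes in the 6 libraries, as the log2 ratio of its normalized count plus 2 to the wild type mean (horizontal axis), with wild type libraries in grey and mutant libraries in red, and an asterisk where the adjusted p was under 0.05. In the *Atf4* group 6 of 10 genes have all mutant points to the right of all wild type points, in the cytosolic synthetases 10 of 20 and in the mitochondrial synthetases 5 of 16. In the same order, 0, 3 and 2 genes have them all to the left. Of all tested genes 20.8% were separated to the right and 22.2% to the left.

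Scaling and transcript length bear on these medians. With library size as the only scaling the median of all tested genes moved by -0.11 on the log2 scale, and with a correction for transcript length it moved by 0.13. The share of higher among all called genes was 32.3%, and became 17.3% and 65.9% in these 2 settings. Relative to the median of all tested genes, the cytosolic synthetases stood 0.20 higher with TMM, 0.20 with library size and 0.23 with the length correction, the *Atf4* group 0.52, 0.52 and 0.41, and the mitochondrial synthetases 0.08, 0.08 and 0.17. Across genes, which are not independent replicates and here share the same 6 libraries, the log2 fold change fell with transcript length. The Spearman rho was -0.26 over 11874 tested genes with a length. It was -0.52 over the 20 cytosolic synthetases, -0.27 over the 16 mitochondrial ones and -0.59 over the 10 genes of the *Atf4* group. The median log2 fold change of tested genes was 0.22 for transcripts under 1000 bases and -0.21 for those of 4000 to 5000 bases. Of the 3 genes that fell, *Vars* has a transcript of 4048 bases, *Iars* of 4426 and *Aars2* of 3348. Among the genes that rose, *Ddit3* has a transcript of 890 bases, *Atf4* of 1370, *Asns* of 2016 and *Wars2* of 4410. The part of length in the results was not tested beyond the correction.

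**Figure D2:**
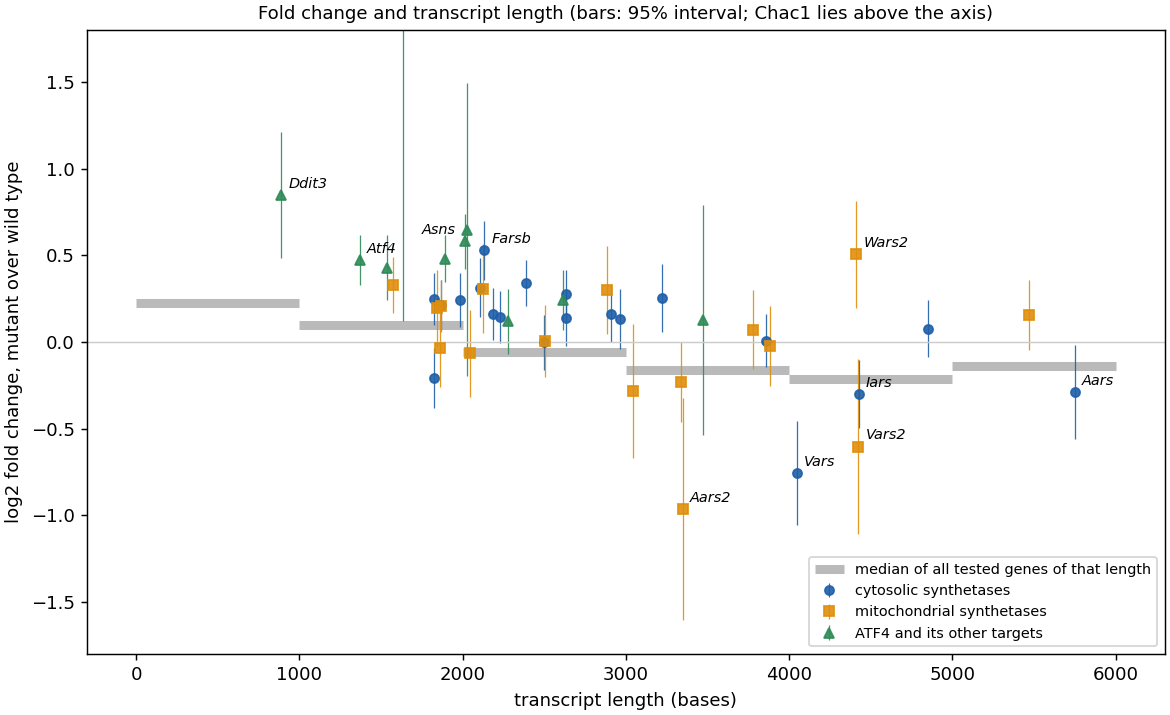
The log2 fold change of the 46 genes (vertical axis) against the length of their transcript in bases (horizontal axis), with 95% intervals as bars and the median of all tested genes in bins of length as grey bands, the last of which takes in all transcripts over 5000 bases. *Chac1*, at 2.08, lies above the axis. The medians run from 0.22 under 1000 bases to -0.21 at 4000 to 5000 bases, and the 3 genes that fell have transcripts of 3348 to 4426 bases.

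*Atf4*, the factor for which the third group is named, was among the more abundant transcripts, with 192 ± 6.58 RPKM (reads per kilobase of transcript, scaled to library depth) in wild type, and it stood at the 96.3 percentile of level per length among tested genes. It had 4968, 5117 and 5319 normalized counts in wild type and 6818, 7365 and 7192 in mutant libraries. Every mutant library lay above every wild type library, and the groups were set far apart compared with their spread. The log2 fold change was 0.47 ± 0.07 (SE, 95% interval 0.33 to 0.62, adjusted p = 0.000132), a rise of 38.8% that stays under the fold needed for a call. Without wild type 3 or without mutant 1 it passed that fold, at 0.51 and 0.50. The gene lies at chr15:80085614-80087970 on the plus strand.

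*Asns*, which encodes asparagine synthetase, lies at chr6:7625169-7643254 on the minus strand and had 2194, 2148 and 2267 normalized counts in wild type against 3480.1, 3201 and 3215 in mutant libraries. The wild type values lay within a narrow range and the mutant mean was 49.7% higher. Its log2 fold change was 0.58 ± 0.08 (adjusted p = 4.97e-05). The call held without any of the 6 libraries, and was lost with library size as the only scaling, where the log2 fold change was 0.48. *Phgdh*, *Psat1* and *Psph* encode the 3 enzymes that make serine from a glycolytic intermediate, in this order. *Phgdh* had the highest level per length of the *Atf4* group, 217 ± 3.55 RPKM in wild type and 303 ± 8.97 in mutant libraries. Its normalized counts were 8074, 7880.4 and 8131 in wild type and 11468, 10829 and 11301 in mutant libraries, again without overlap. This is a log2 fold change of 0.48 ± 0.06 (adjusted p = 6.25e-05), which passed the fold of a call without wild type 3 or without mutant 2 (0.50 each). *Phgdh* has 6 other loci in mm9 with at least 95% identity over at least 50% of its transcript, so its count, made from uniquely mapping reads, is uncertain. *Psph* went from 1176, 1239.9 and 1289 to 1631, 1712 and 1644 normalized counts, a log2 fold change of 0.43 ± 0.09 (adjusted p = 0.00244). *Psat1* had 3388, 3142 and 3787 in wild type and 4315, 3874 and 3998 in mutant libraries. Its groups are separated by a small gap, and its log2 fold change of 0.24 ± 0.08 passed the test narrowly (adjusted p = 0.0382). It lost that with the replicate number as a block (adjusted p = 0.0578), and without any library except wild type 3. *Shmt2*, whose product passes a carbon unit from serine to folate in mitochondria, had 3762 to 4103 normalized counts across wild type and 3840.1 to 4929 across mutant libraries, and the groups overlapped (log2 fold change 0.12, 95% interval -0.07 to 0.31).

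Among the stress regulators of the group, *Chac1*, *Trib3* and *Sesn2* were at low levels and *Ddit3* stood at the 73.0 percentile of level per length. *Ddit3*, which encodes the transcription factor CHOP and lies at chr10:126727830-126733344 on the plus strand, had 314, 375 and 438 normalized counts in wild type and 674, 824 and 529 in mutant libraries. All mutant libraries were higher, with a spread among them of 148 (SD). The log2 fold change was 0.85 ± 0.17 (adjusted p = 0.00204), a rise of 79.9%. The call was lost without wild type 1, wild type 2 or mutant 2, with log2 fold changes of 0.73, 0.85 and 0.68 and adjusted p of 0.0144, 0.0104 and 0.0163. Exons of *Mars* on the opposite strand cover 3.97% of the exon bases of *Ddit3*, and whether reads were counted by strand was not given in the sources used here. *Chac1*, which encodes an enzyme that degrades glutathione, had the lowest level per length of the group. It had 0, 2.80 and 13.3 normalized counts in wild type and 13.5, 11.7 and 44.2 in mutant libraries. These few reads overlapped between the groups, and its log2 fold change of 2.08 came with a 95% interval of 0.12 to 4.05 and an adjusted p of 0.104 (0.0237 without wild type 3, at a log2 fold change of 3.94, and 0.478 without mutant 3, at 1.22). *Trib3*, a pseudokinase that binds ATF4 and CHOP, had 51.6, 37.3 and 29.5 against 49.7, 54.3 and 81.9 normalized counts, again with overlap (log2 fold change 0.65 ± 0.40, adjusted p = 0.24). With a library left out, its log2 fold change ran from 0.398 (without mutant 3) to 0.889 (without wild type 1). *Sesn2*, a leucine sensor that restrains mTORC1, had 136, 135 and 55.1 against 107, 120.3 and 129. Wild type 3 was the lowest of the 6, and the log2 fold change was 0.13 (95% interval -0.54 to 0.79, adjusted p = 0.795) and -0.18 without it.

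**Figure D3:**
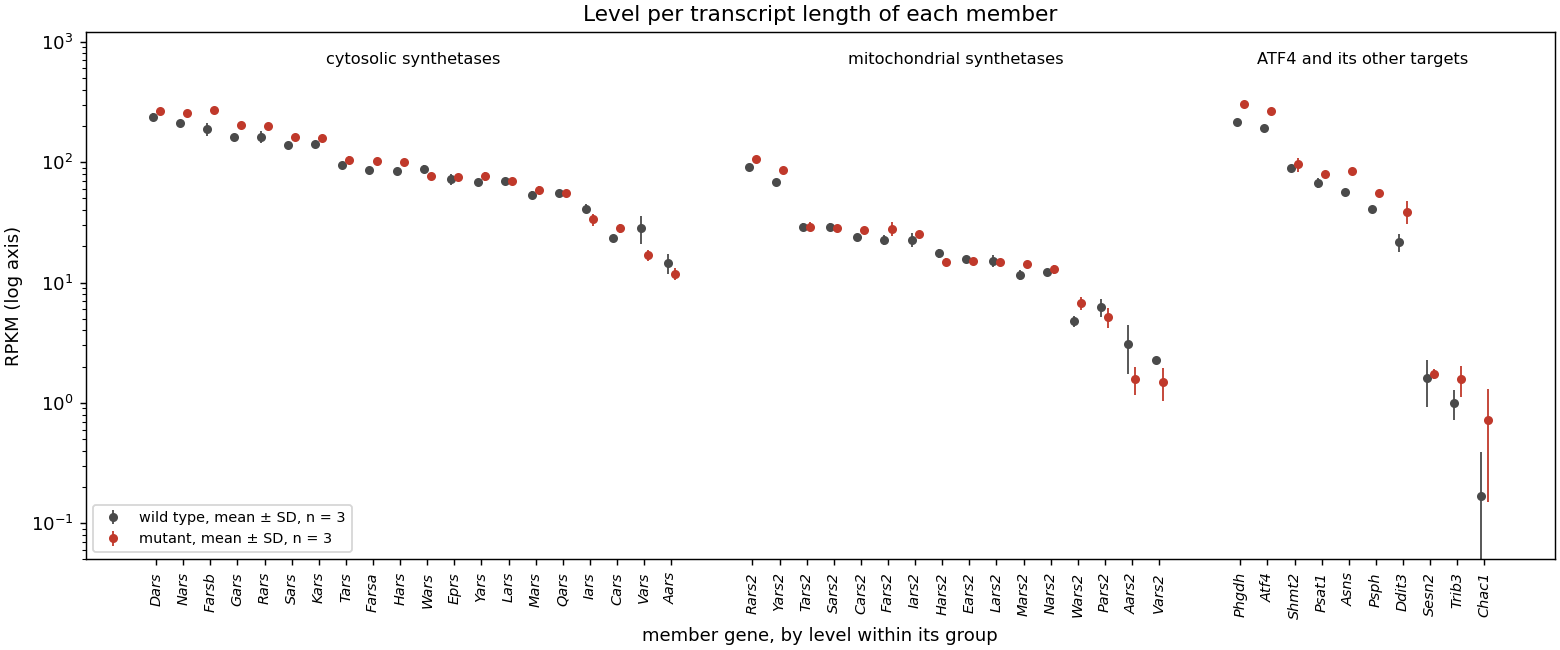
The level per length of the 46 genes in RPKM on a log scale, with the mean of 3 wild type and of 3 mutant libraries and the SD as error bars. The SD of *Chac1* in wild type exceeds its mean, so its lower bar leaves the axis. The levels span from *Chac1*, 0.168 RPKM in wild type, to *Dars* and *Phgdh*, 239 and 217 RPKM, with the mitochondrial synthetases mostly under the cytosolic ones.

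Among the cytosolic synthetases 7 rose, *Farsa*, *Farsb*, *Gars*, *Hars*, *Nars*, *Rars* and *Sars*, and 2 fell, *Iars* and *Vars*. The other 11 did not pass the test. These shares, 35% and 10%, stand beside 13.6% and 15.1% of all tested genes. The number that rose was 4 with library size as the only scaling and 15 with the length correction, and 3 and 1 fell in these settings. *Farsa* and *Farsb* encode the subunits of phenylalanyl-tRNA synthetase. *Farsb*, at chr1:78414533-78485434 on the minus strand, had 7159, 7417 and 8884 normalized counts in wild type and 10899, 11916 and 11023 in mutant libraries. The wild type libraries were not tight, yet the highest of them stayed well under the lowest mutant library. Its log2 fold change was 0.53 ± 0.08 (adjusted p = 0.000247), a rise of 44.2%. The call was lost without wild type 1 (0.47), wild type 2 (0.49) or mutant 2 (0.49), each just under the minimum fold, and with library size as the only scaling (0.43). Exons of *Sgpp2* on the opposite strand cover 10.8% of its exon bases. *Farsa* had 3162, 2941 and 3054 against 3728, 3606 and 3546, and its log2 fold change was 0.25 ± 0.07 (adjusted p = 0.017).

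*Gars*, whose product charges glycine tRNA in both compartments, had even values within each group, 7625, 7426 and 7565 in wild type and 9668, 9450.1 and 9497 in mutant libraries. Its log2 fold change was 0.34 ± 0.06 (adjusted p = 0.00108). *Rars*, for arginine, had 6504, 5994 and 7485 against 8003, 8649 and 8188, with wild type 3 nearest to the mutant libraries. It rose by a log2 fold change of 0.31 ± 0.08 (adjusted p = 0.00895). *Nars*, for asparagine, had 11083, 10232 and 11141 against 13681, 12728 and 12845 and was thus among the most abundant synthetases, with 211 ± 9.91 RPKM in wild type. Its rise was 0.27 ± 0.07 on the log2 scale (adjusted p = 0.00622). *Hars* (histidine) had 3299, 3136 and 3457 against 3879, 3772 and 4059, with a log2 fold change of 0.24 ± 0.07 (adjusted p = 0.021). *Sars* (serine) had 5039, 4948 and 5129.5 against 6000.4, 5993 and 5541, with a log2 fold change of 0.21 ± 0.07 (adjusted p = 0.0277). The groups of these 5 genes did not overlap. *Sars* lost its pass with the replicate number as a block (adjusted p = 0.0729) and without wild type 1, wild type 2, mutant 1 or mutant 2 (0.0795 to 0.118). *Hars* lost it without wild type 1, wild type 2, mutant 1 or mutant 3 (0.0666 to 0.105), and *Farsa* without wild type 2, mutant 1 or mutant 2 (0.053 to 0.0825). *Gars*, *Rars* and *Nars* kept it without any 1 library.

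*Vars*, which encodes the valine enzyme and lies at chr17:35137932-35153267 on the plus strand, went the other way. It had 2019.9, 2916 and 1800.1 normalized counts in wild type and 1393, 1179 and 1417 in mutant libraries. All mutant libraries were lower, and wild type 2 was far above the other wild type libraries. The log2 fold change was -0.76 ± 0.14 (adjusted p = 0.0012), and without wild type 2 it was -0.52 and still called. With the length correction it was -0.47 (adjusted p = 0.021), which is no call. *Iars*, the isoleucine enzyme, had 3719, 3724 and 3229 against 3161, 2512 and 2987, with wild type 3 and mutant 1 almost level. Its log2 fold change of -0.30 ± 0.09 (adjusted p = 0.0228) became -0.0021 with the length correction, and it no longer passed without wild type 1, wild type 2 or mutant 2. A locus on chromosome 1 of mm9 is 95.9% identical to 61.3% of its transcript, so its count is uncertain too.

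The other 11 cytosolic enzymes, which did not pass, had log2 fold changes from -0.29 to 0.25. *Dars*, the aspartate enzyme, had the highest level per length of the synthetases in wild type, and its counts of 10234, 9865 and 11129.6 in wild type overlapped with 10841, 12203 and 11488 in mutant libraries (log2 fold change 0.15, adjusted p = 0.138). *Aars*, the alanine enzyme, had the lowest of the cytosolic enzymes, 14.4 ± 2.72 RPKM over the transcript of 5750 bases used here. It had 1668, 1889.7 and 1287 against 1435, 1153 and 1381, with a log2 fold change of -0.29 (95% interval -0.56 to -0.02, adjusted p = 0.102). *Cars*, *Kars* and *Yars* had non-overlapping groups with the mutant higher and *Wars* with it lower, yet none of the 4 passed. *Eprs*, *Lars*, *Mars*, *Qars* and *Tars* had log2 fold changes from -0.0027 to 0.14. The sign of *Eprs* and *Lars* turned with library size as the only scaling, and that of *Qars* with the length correction.

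Synthetases belong to 2 classes of unrelated fold. Of the 10 cytosolic class II enzymes 6 rose, 0 fell and the median log2 fold change was 0.23, and of the 10 class I enzymes 1 rose (*Rars*), 2 fell and the median was 0.04. Among all tested genes 13.6% rose and 15.1% fell. *Eprs* is counted here as class I, although its protein also holds a class II enzyme for proline. With the length correction *Cars*, *Eprs*, *Lars*, *Mars* and *Yars* of class I passed as higher too, and *Iars* no longer fell. In class II *Dars*, *Kars* and *Tars* were then added to those that rose. The median of all tested genes moved up by 0.13 with this correction. The difference between the classes was not tested. Of the cytosolic enzymes 8 sit in the multisynthetase complex, a particle that holds synthetases together. Of these 8, *Rars* rose, *Iars* fell and the other 6, *Eprs*, *Lars*, *Mars*, *Qars*, *Kars* and *Dars*, did not pass. The median over the 8 was 0.11. With the length correction all of the other 6 but *Qars* passed as higher. All 3 genes of its scaffold, which hold no catalytic site, rose, and the length correction was not run for them. *Aimp1* had 2095, 2117 and 2352 against 2720.1, 2873 and 2736 (log2 fold change 0.34, adjusted p = 0.00445). *Aimp2* and *Eef1e1* rose by log2 fold changes of 0.30 and 0.39 (adjusted p of 0.00718 and 0.00572), also without overlap.

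The mitochondrial synthetases, which serve the few proteins encoded by mitochondrial DNA, were at lower levels and moved in both directions. *Rars2*, *Wars2* and *Yars2* rose, *Aars2* fell, 12 did not pass and 0 were called. These counts, 18.8% and 6.25%, stand beside 13.6% and 15.1% of all tested genes. With library size as the only scaling 1 rose and 3 fell, and with the length correction 7 rose and 0 fell. The 13.6% and 15.1% belong to the TMM fit, and the shares of all tested genes in these settings are not given here. *Yars2*, for tyrosine, had 2172, 2125 and 2067 normalized counts in wild type and 2751, 2552 and 2687 in mutant libraries, a clear separation, with a log2 fold change of 0.33 ± 0.08 (adjusted p = 0.00485). *Wars2*, for tryptophan, had 427, 364 and 445 against 618, 634 and 501, and a log2 fold change of 0.51 ± 0.15 (adjusted p = 0.0169). Its pass was lost without wild type 2, mutant 1 or mutant 2, with adjusted p of 0.0767, 0.0651 and 0.0739. *Rars2*, for arginine, had the highest level per length of these enzymes, 91.4 ± 1.37 RPKM in wild type. It had 3279, 3379 and 3333 against 4028, 3717 and 3783, with a log2 fold change of 0.21 ± 0.07 (adjusted p = 0.0397) that no longer passed with the replicate block (adjusted p = 0.0948), nor without any library except wild type 3. *Aars2*, for alanine, fell from 293, 192 and 119 to 76.6, 129.9 and 103. Wild type 3 lay between the mutant libraries, so the groups overlapped in spite of a log2 fold change of -0.96 ± 0.30 (adjusted p = 0.0261). Without wild type 1 it was -0.59 (adjusted p = 0.2), without wild type 3 it was -1.22 and called, and it did not pass without wild type 2, mutant 1 or mutant 3 either. With the length correction it was -0.72 and did not pass (adjusted p = 0.085). *Vars2*, the lowest of the enzymes at 2.27 ± 0.16 RPKM in wild type, had 193, 211 and 183 against 118, 95.8 and 173 (log2 fold change -0.60, adjusted p = 0.0672).

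Cytosolic and mitochondrial enzymes for the same amino acid are set side by side here where at least 1 of them passed the test. *Rars* and *Rars2* both rose. *Hars* rose, whereas *Hars2* had 1254, 1074 and 1085 against 1042, 886 and 980.1 (log2 fold change -0.23, adjusted p = 0.122). These neighbours are transcribed in opposite directions and share 9.81% of the exon bases of *Hars* and 4.56% of those of *Hars2*. For phenylalanine, *Farsa* and *Farsb* rose and *Fars2* had 960.3, 836 and 1021 against 977, 1280.0 and 1232 (log2 fold change 0.31, adjusted p = 0.0673). For asparagine and serine, *Nars2* and *Sars2* had overlapping groups, 873 to 922 against 877 to 1039.8 and 1005 to 1153 against 964 to 1076, with log2 fold changes of 0.07 and -0.04. *Iars2* had 2568, 2658 and 2049 against 2719, 2564 and 2829 (log2 fold change 0.16, adjusted p = 0.231), and 22.7% of its exon bases are covered by *Rab3gap2* on the opposite strand. In valine both log2 fold changes were negative, -0.76 for *Vars* and -0.60 for *Vars2*, and only the former passed. In tyrosine both were positive, with *Yars* at 3921, 3675 and 3975 against 4306, 3988 and 4671 (log2 fold change 0.16, adjusted p = 0.12). In tryptophan they were opposed, and *Wars* had 3119, 3361 and 2898 against 2846, 2489.8 and 2785 (log2 fold change -0.21, adjusted p = 0.0712). The differences within these pairs were not tested.

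The wider pathway was read from further lists of genes. Of 14 genes for the eIF2 kinases, the exchange factor eIF2B and the eIF2 phosphatase, 5 rose (35.7%) and *Gcn1l1*, an activator of the kinase GCN2, fell (7.14%), with 0 called, where 13.6% of all tested genes rose, 15.1% fell, 2.78% were called higher and 5.83% lower. The smallest p was that of *Eif2s1*, the eIF2 subunit that is phosphorylated, with 10926, 10903 and 13091 against 14492, 15197 and 14332 normalized counts (log2 fold change 0.33, adjusted p = 0.00436). None of the 4 kinase genes *Eif2ak1*, *Eif2ak2*, *Eif2ak3* and *Eif2ak4* passed. Of 5 partner transcription factors, *Atf3* and *Cebpb* were called higher (40%, against 2.78% of all tested genes). *Atf3* had 12716, 9786 and 13146 against 23374, 24258 and 25207, a log2 fold change of 1.03 (adjusted p = 9.58e-07), and *Cebpb* 591, 612 and 624 against 866, 925 and 983, a log2 fold change of 0.60 (adjusted p = 0.00109). *Atf3* also belongs to a list of 8 genes induced when tissue is dissociated. In that list *Hspa1b*, a heat shock chaperone, was called higher (log2 fold change 1.34) and *Jun* lower (-1.11). In all, 4 of its genes rose (50%, against 13.6% of all tested genes) and 2 fell (25%, against 15.1%). The part of dissociation in the results was not tested.

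A further list of 16 target genes of ATF4 covers amino acid supply and folate metabolism, and 15 of them were tested. In it 5 rose (33.3%, against 13.6% of all tested genes) and 3 fell (20%, against 15.1%). *Slc3a2*, the heavy chain shared by several amino acid transporters, was called higher, with 5011, 4569 and 5403 against 7648, 7956 and 7668 normalized counts (log2 fold change 0.64, adjusted p = 1.64e-05). *Mthfd2*, a mitochondrial enzyme of folate metabolism, was called higher with 547, 544 and 738 against 923, 969 and 908 (log2 fold change 0.61). Partners of the same heavy chain went down. *Slc7a5*, its light chain for leucine uptake, had 656, 799.9 and 579.8 against 517, 421 and 409 (log2 fold change -0.60, adjusted p = 0.00796). *Slc7a11*, its light chain for cystine uptake, had 154, 147 and 148 against 12.4, 8.52 and 5.53 (log2 fold change -4.06, adjusted p = 1.27e-06), a change larger in size than that of any of the 46 genes. *Gpt2*, an alanine aminotransferase, was called lower too (log2 fold change -0.66). Of 7 targets of other roles 5 were tested. Of these, 2 rose (40%, against 13.6% of all tested genes) and 0 fell (against 15.1%). *Herpud1*, a component of endoplasmic reticulum protein degradation, rose with 2553, 1911 and 2133 against 4058, 3812 and 3927 (log2 fold change 0.84, adjusted p = 1.19e-05).

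Among 14 chaperones and sensors of the other branches of the unfolded protein response, 4 rose (28.6%, against 13.6% of all tested genes) and 1 fell (7.14%, against 15.1%). *Edem1*, which leads misfolded glycoproteins to degradation, had 376, 465 and 421 against 1386, 1563 and 1393 normalized counts, a log2 fold change of 1.78 (adjusted p = 2.82e-08). *Dnajb9*, a cochaperone of the endoplasmic reticulum, was called higher as well (log2 fold change 0.53). The other 9 did not pass. Of 6 further synthetases and relatives that were tested, 4 rose (66.7%, against 13.6% of all tested genes) and 0 were called (against 2.78% higher), and *Aarsd1*, which encodes an alanyl-tRNA editing protein, had the smallest p (log2 fold change 0.34, adjusted p = 0.00809).

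**Figure D4:**
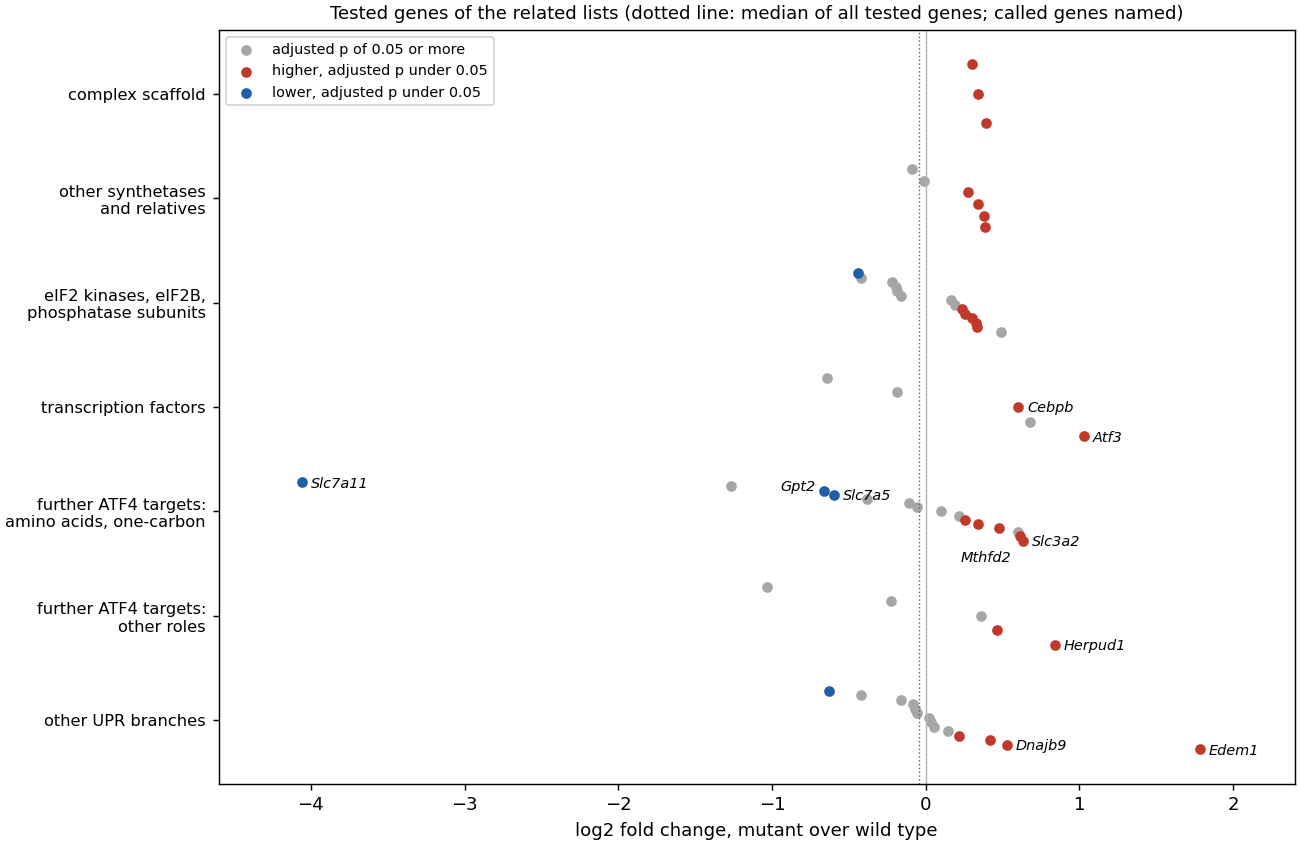
The log2 fold change (horizontal axis) of every tested gene in 7 related lists, with genes that rose in red, those that fell in blue and the others in grey, called genes named, and the median of all tested genes as a dotted line at -0.04. *Slc7a11* lies farthest to the left at -4.06 and *Edem1* farthest to the right at 1.78.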

How the data were processed

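The labels describe 6 libraries of polyA RNA, which were grouped by the genotype the labels give. The authors prepared cDNA (SMARTer v4), mapped the reads to mm9 with STAR 2.5.2b, counted uniquely mapping reads per gene of a UCSC gene model with featureCounts 1.5.1 and deposited raw counts, not normalized. The strand setting was not given in the sources used here. The test was that of edgeR 4.0.16 under R 4.3.3 (TMM, filterByExpr, quasi-likelihood), fitted over the whole table. The study's own criteria ask for an RPKM of 50 or more, which the minimum mean of 50 normalized counts replaced. RPKM values use the mm9 transcript with the longest coding sequence. The common dispersion was 0.0209. Chi-square of the counts per gene was 6.30 to 17.9 within and 27.9 to 54.2 between groups, so no library was a copy of another. Wild type 3 stood apart in its group, at 16.0 and 17.9 from wild type 1 and wild type 2, which were at 8.57 from each other. From the mutant libraries it was at 27.9 to 32.3, and wild type 1 and wild type 2 at 39.0 to 54.2. Its *Tcf7l1*, 364 normalized counts, was the lowest of the wild type libraries. Counts are of reads and not molecules, and counting error was not given apart from the spread between libraries. Positions and overlaps come from GENCODE on mm9, and near-identical copies from BLAST+ 2.17.0. The fits were tested on simulated data.

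The 46 genes and the lists were chosen with earlier results of these data known. Statistics were given for genes past the test, for *Atf4*, *Asns*, *Chac1*, *Trib3*, *Ddit3* and *Sesn2*, and for the paralogue of every gene past it, and library values also for the highest and lowest level per length of each group. From the further lists, called genes and otherwise the gene with the smallest p were named. *Aimp2*, *Eef1e1*, *Gcn1l1*, the kinase genes and the statistics of *Shmt2* and *Dars* were added after their values were seen. Alternatives were RLE factors, library size, DESeq2 1.42.0, other filters and thresholds, a correction for length by loess (span 0.5), a fit with the replicate block, and leaving out each library, all run for the 46 genes and not for the further lists. Sums at library size alone were added after the data were seen. The sequence around the matches of 1 gene is not reported here.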

Additional observations from a re-analysis of the deposited data

How the results depend on the processing

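There were 3 libraries in each group, and the biological coefficient of variation was 0.144. The smallest change that the test can separate was not estimated. The number of genes that rose was 16 and became 10 when only library size scaled the counts, 29 with the length correction and 10 at an adjusted p of 0.01, and 10 to 21 with a library left out (10 without wild type 2). The number that fell was 3 and became 6, 1 and 1 in these settings, and 1 to 5 with a library left out (1 without wild type 1 or wild type 2, 5 without wild type 3, 2 without mutant 1 or mutant 2). The shares of all tested genes that rose or fell in these settings are not given here. Genes called higher numbered 3, and 1 with library size, 5 with DESeq2, 6 with the length correction, 10 with no minimum fold, 0 at a minimum log2 fold change of 1, and 1 to 5 with a library left out (1 without wild type 1 or wild type 2, 5 without wild type 3, 2 without mutant 2). Genes called lower numbered 1, and 2 with no filter on low counts, 0 with the length correction, at a minimum log2 fold change of 1 or at a mean RPKM of at least 50, and 1 to 2 with a library left out (2 without wild type 3). Among all tested genes, 348 were called higher. This became 200 with library size, 407 with DESeq2, 758 with the length correction and 260 to 516 with a library left out. Those called lower among all tested genes were 729, and 895 with no filter on low counts. They were fewer with the length correction, and 405 to 867 with a library left out. The number tested differed between settings. Such counts at other thresholds are not given here. The median log2 fold change of the cytosolic synthetases was 0.15 and became 0.0488 with library size and 0.32 with the length correction, and 0.12 to 0.21 with a library left out. That of the mitochondrial synthetases was 0.04 and became -0.0681 and 0.26, and that of the *Atf4* group 0.48 and 0.37 with library size. The causes were not tested.

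No gene that rose or fell changed its sign in any setting. Signs turned for 10 others. With library size alone the log2 fold change was -0.0300 for *Eprs*, -0.0969 for *Lars*, -0.0349 for *Nars2* and -0.101 for *Tars2*. With the length correction it was 0.162 for *Qars*, 0.0315 for *Ears2*, 0.0111 for *Hars2*, 0.258 for *Lars2* and 0.0314 for *Sars2*. *Qars* was at 0.0192 with RLE factors and 0.0204 with DESeq2, *Lars2* at 0.0012 with DESeq2, and *Lars* and *Tars2* at -0.0068 and -0.0091 with a filter at a mean of 50. With a library left out, the values ran from -0.0196 to 0.0607 for *Lars*, -0.0233 to 0.0253 for *Qars*, -0.0734 to 0.0765 for *Lars2*, -0.0012 to 0.123 for *Nars2*, -0.0672 to 0.0298 for *Sars2*, -0.0557 to 0.0617 for *Tars2* and -0.176 to 0.319 for *Sesn2*. Without wild type 3, 7 more genes passed (*Aars*, *Chac1*, *Dars*, *Fars2*, *Kars*, *Wars*, *Yars*). With library size alone 6 of the genes that rose no longer passed (*Farsa*, *Hars*, *Sars*, *Rars2*, *Wars2*, *Psat1*), and without a filter *Rars2* did not.

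The labels number the libraries of both groups 1 to 3. Deviations of same-numbered libraries from their group means correlated at 0.0097, -0.0449 and -0.0179, so the numbers were not taken to pair the samples. With a replicate block 13 genes rose and 3 fell, 3 were called higher and 1 lower. *Psat1*, *Rars2* and *Sars* were the ones that no longer passed.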
